A study of Astyanax mexicanus with 78 samples.

Results

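The genes described here were silent in some surface fish libraries and clearly present in others of the same age class and tissue, with the same library numbers present in several tissues. They were chosen by their own raw counts in the surface libraries. Within 1 age class, every library of a tissue had to hold either at least 10 counts of the gene (on) or at most 1 count (off), with both states present, and the identical set of library numbers had to be on in 2 or more of the 5 tissues. The rule took 116 of 19076 genes (0.608%). Among aged surface fish it took 58 genes and among young surface fish 62, with 4 genes in both lists. These counts, and the on and off values behind them, are a description, because they chose the genes.

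The study sampled brain, gut, heart, liver and muscle of *Astyanax mexicanus*, the Mexican tetra, which has an eyed surface form in rivers and blind forms in caves. The groups used here were aged Pachón cavefish (7 to 8 years, numbers 5 to 8), young Pachón cavefish (about 1 year, numbers 1 to 4), aged surface fish (7 to 8 years, numbers 5 to 8) and young surface fish (about 1 year, numbers 1 to 4). No fish carried a treatment or a transgene per the labels. The 78 bulk libraries, 39 from cavefish and 39 from surface fish, held 4 libraries per group and tissue, except aged cave brain and aged surface gut with 3 each. Aged surface gut has no number 8, so a set that contains this number could not be matched there.

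Animals of the same age can differ in whether a gene is read at all. The genome differs between animals, for example by a deleted copy or a disrupted promoter, and so does the state of the whole animal, set by infection, feeding, hormones or sex. Either can reach several tissues of an animal. Stray pieces of a neighbouring organ can also lie in several dissections of the same animal. Which of these applies to the genes described here was not tested. In bulk tissue, fewer cells of a type and less RNA per cell cannot be told apart.

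The labels do not state that libraries sharing a number came from the same fish, so this was examined on genes outside the rule. Deviations from the group mean were taken on log2(CPM + 1), where CPM is the count scaled to the library total. Same-number libraries of different tissues had a median correlation across genes of 0.214 in aged surface fish (31 of 36 pairs above 0), against -0.0613 for different numbers. In young surface fish the medians were 0.202 (37 of 40 pairs above 0) and -0.0617. Centring on the group mean by itself pushes different numbers below 0 when same numbers lie above 0, so the values for different numbers are not an independent comparison. Genes are not independent replicates, so these values carry no p-value. Libraries that share a number within a group are called a fish in what follows, although no label states it. Total counts ranged from 6266669 to 20118504 per library, and all 39 surface libraries were closest to other libraries of their own tissue. Cave young heart number 1 was closest to liver and is left out of the cavefish states given below. Liver-specific genes, those at least 16-fold higher there than in each other tissue and at 100 CPM or more, took 78.7% of that library. They also took 11.4% of cave aged heart number 7, 7.8% of cave aged heart number 6 and 5.23% of cave young heart number 2, which were kept, and 16.4% of surface aged heart number 8, 5.03% of surface aged heart number 7 and 1.84% of surface young heart number 4.

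Before agreement between tissues was required, 1140 genes were switched in at least 1 tissue of aged surface fish (5.98%) and 1152 in young surface fish (6.04%). Of these, 126 aged and 131 young genes were switched in 2 or more tissues. The same numbers were on in 2 or more tissues for 58 of the 126 aged genes (46.0%) and for 62 of the 131 young genes (47.3%). For the other 68 aged and 69 young genes the full sets all differed between tissues. Aged gut has no number 8, so a set with this number counted as different there. Comparing only the numbers that both tissues have gave 69 aged and 62 young genes with identical sets in 2 or more tissues. Counted by pairs of tissues, the full on sets were identical in 91 of 178 aged cases (51.1%) and in 105 of 202 young cases (52.0%). Pairs with brain ranged widely and held few genes. In young surface fish 10 of 11 genes switched in both brain and gut had the same numbers on, 7 of 8 did in brain and liver, 9 of 14 in brain and heart and 2 of 4 in brain and muscle. In aged surface fish this held for 5 of 11 genes in brain and gut, 4 of 8 in brain and liver, 11 of 14 in brain and heart and 5 of 6 in brain and muscle. In the pair of liver and muscle the sets were identical for 8 of 20 aged and 15 of 33 young genes.

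**Figure D1:**
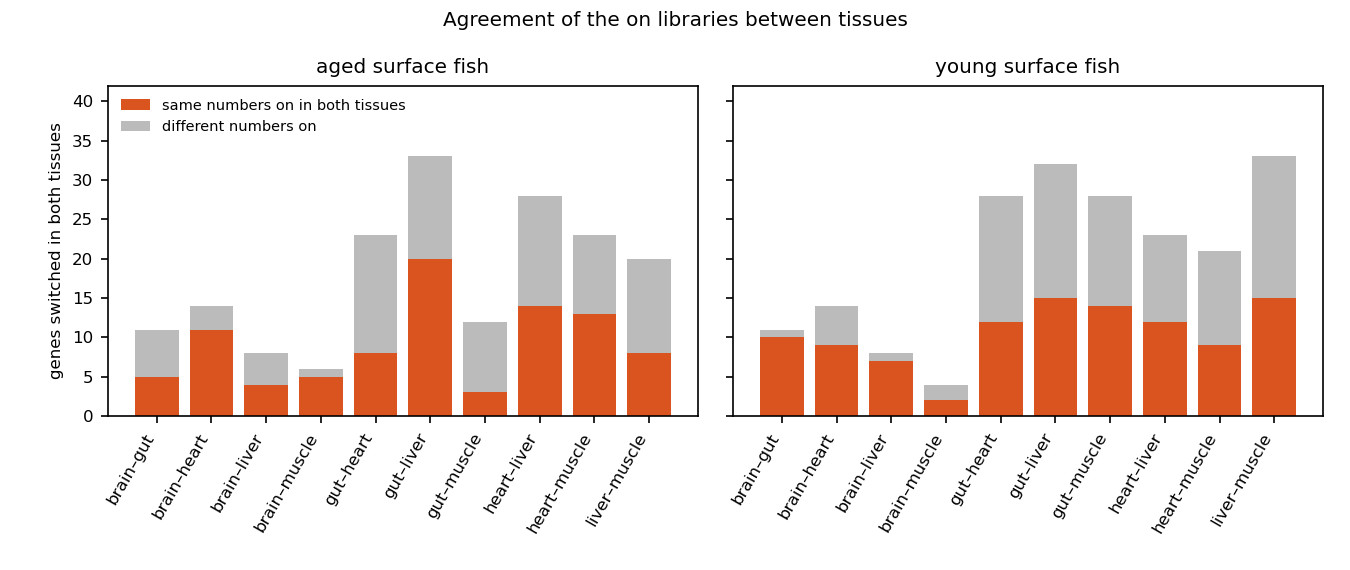
Number of genes switched in both tissues of each pair (vertical axis) in aged and young surface fish, split into genes with identical numbers on (orange) and genes with different numbers on (grey). Pairs with brain hold few genes, and brain and gut shared the set for 5 of 11 in aged and for 10 of 11 in young fish.

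Most switched genes were scarce. The median level in on libraries was 2.2 CPM over the 58 aged genes (0.741 to 23.2 CPM) and 3.02 CPM over the 62 young genes (0.973 to 35.1 CPM). The lowest on count had a median of 14 in the aged list and 15 in the young list. It reached at least 20 in 18 aged and 23 young genes and at least 50 in 2 aged and 4 young genes. At the limit itself, 9 aged and 4 young genes had a lowest on count of exactly 10, among them ENSAMXG00000008759 and ENSAMXG00000034088. Another 13 aged and 9 young genes missed the rule with a lowest on count of 9, among them ENSAMXG00000003753 and ENSAMXG00000014191. Leaving out 1 number and applying the rule to the other 3 changed the counts by more than 1.5 times for 4 numbers, to 94 genes without aged number 5 (47 of them in the list from all 4 numbers), 91 without aged number 8 (56 of them), 104 without young number 3 (50 of them) and 107 without young number 4 (56 of them).

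A single number was on in 41 of the 58 aged genes, 2 numbers in 9 and 3 numbers in 8. In young fish the split was more even, with 23, 14 and 25 genes. Aged number 6 alone was on for 22 genes, number 7 alone for 9, number 5 alone for 8 and number 8 alone for 2. Number 8 was the fish with the highest liver-specific share in heart. It has no gut library and had the lowest totals in aged surface liver (10991580) and muscle (10141714). Number 6 had the highest totals in aged surface liver (16466754) and gut (14445324), but not in brain, heart or muscle. Liver-specific genes took 33.9% of its liver library, against 40.9% to 71.2% in the other aged surface livers. Whether depth or composition bears on these counts was not tested. In young fish the commonest sets were number 2 alone (12 genes) and numbers 2, 3 and 4 (12 genes, off in number 1), followed by numbers 1, 2 and 4 (7 genes, off in number 3).

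The gene with the widest span was ENSAMXG00000006516, which was on in young numbers 1, 2 and 4 and off in number 3 in all 5 tissues. In young surface brain it had 58, 36 and 24 counts in numbers 1, 2 and 4, against 0 in number 3. Gut had 38, 34 and 18 counts against 0, and heart had 12, 25 and 19 against 0. Liver had 35, 25 and 30 counts against 0, and muscle 82, 51 and 77 against 1. Number 3 thus held a single count over 5 libraries. The gene was present in every library of the other groups, with 40 to 358 counts in cavefish and 32 to 293 counts in aged surface fish.

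ENSAMXG00000015485 shared this pattern of numbers. In young surface gut it had 297, 115 and 61 counts in numbers 1, 2 and 4, against 0 in number 3. The on values of heart were 76, 237 and 198 counts against 1, those of liver 24, 22 and 28 against 0, and those of muscle 60, 86 and 34 against 1. In brain number 3 held 10 counts, below the 626, 503 and 316 counts of numbers 1, 2 and 4, so the order was kept there although the off limit was not met. All cave and all aged surface libraries were on, with 13 to 713 counts in cavefish.

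ENSAMXG00000035849 was on in numbers 1 and 3 of the young surface fish, with 164 and 72 counts in brain against 1 in number 2 and 0 in number 4. In gut it had 76 and 56 counts against 0 in both off libraries, in heart 29 and 55 against 0, and in muscle 63 and 51 against 0. Liver, which the rule did not use because number 1 held 9 counts, showed 9 and 13 counts against 0. Cavefish expressed the gene in every tissue, with 99 to 164 counts in brain and 8 to 24 in liver, apart from 2 counts in cave young heart number 1. Aged surface fish had at most 3 counts in any library. Scaled to the library total, cave brain held 14 to 19.5 CPM, against 10.9 and 11 CPM in the on and at most 0.084 CPM in the off young surface fish. In CPM the cave libraries lay above the on surface fish in brain, gut and muscle, and in heart apart from cave young heart number 1, and overlapped with them in liver.

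Other genes were present in most surface fish and absent from cavefish. ENSAMXG00000029579 was on only in number 2 of the young surface fish, with 60 counts in brain, 145 in gut and 56 in heart. Number 2 also held the only counts in the tissues below the limit, 4 in liver and 9 in muscle, and the other 3 young numbers were at 0 in all 5 tissues. All 39 cave libraries were at 0. Every aged surface library had counts, from 31 to 54 in brain and from 91 to 116 in gut. ENSAMXG00000030269 was on in aged numbers 6 and 8, with 27 and 35 counts in brain, 149 and 68 in heart and 22 and 30 in muscle, against at most 1 in numbers 5 and 7. All cave libraries were again at 0, and young surface fish had 41 to 76 counts in brain.

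**Figure D2:**
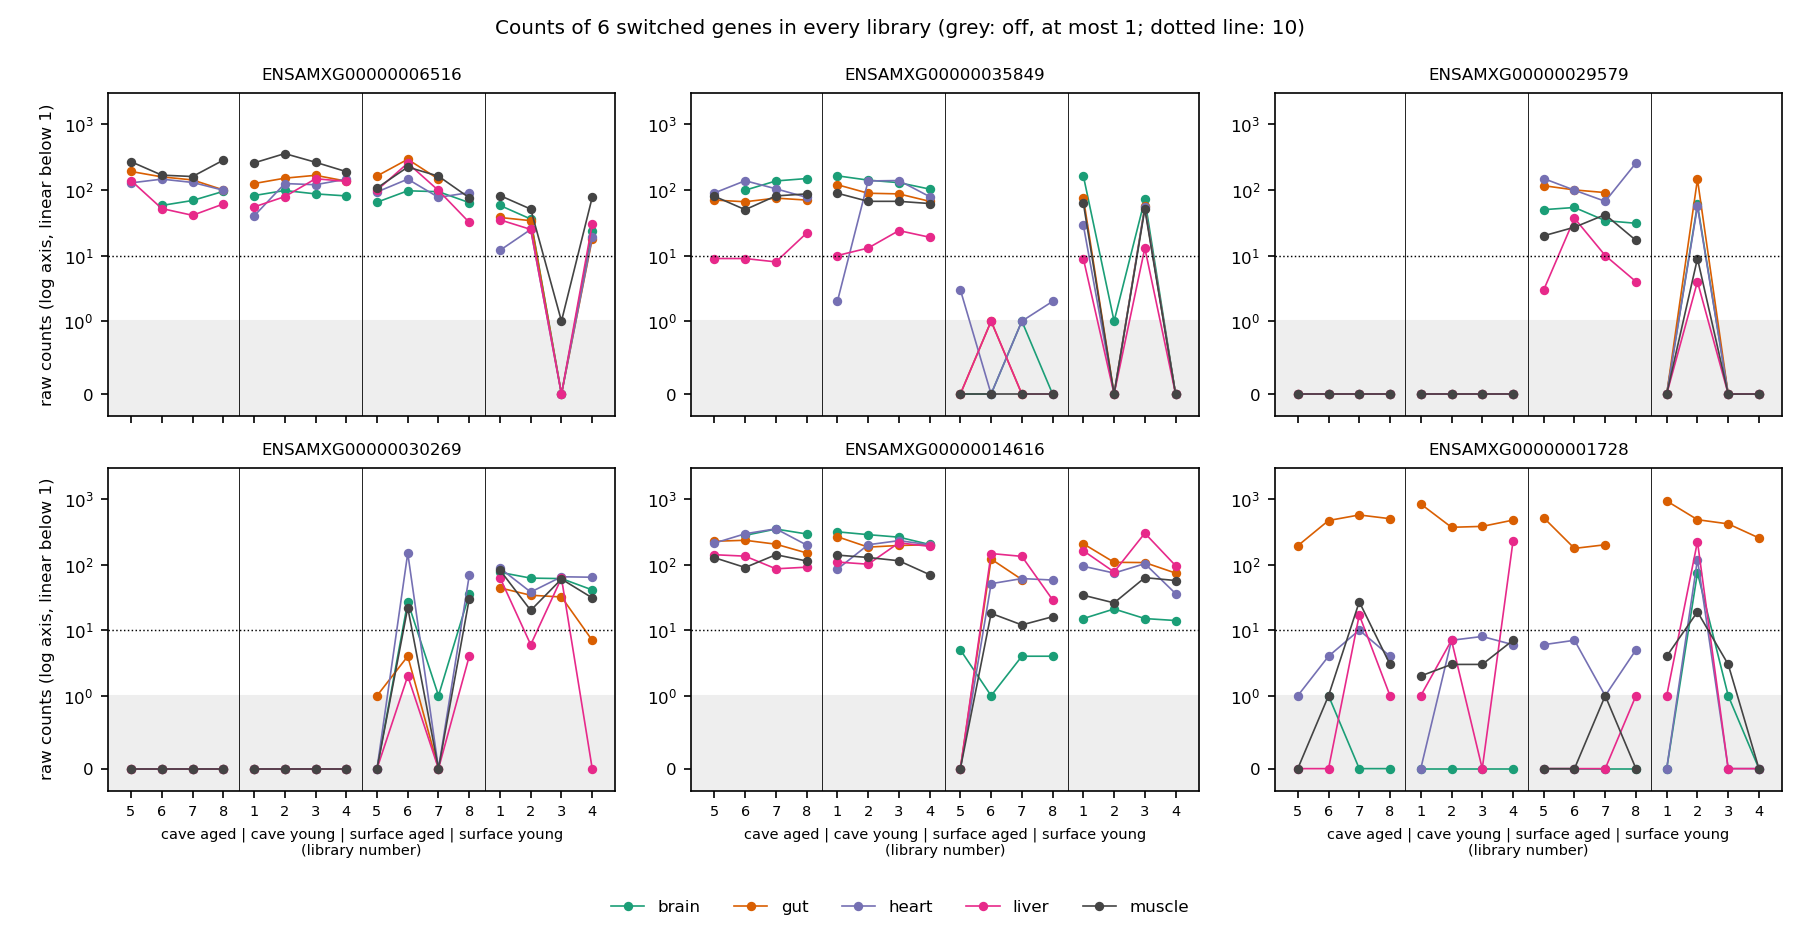
Raw counts (vertical axis, logarithmic above 1) of 6 switched genes in every library, ordered by group and number, with 1 line per tissue. For ENSAMXG00000006516 all 5 lines drop together in young surface number 3, and for ENSAMXG00000029579 they rise together in young surface number 2 while all cave libraries are at 0.

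In the aged list, ENSAMXG00000033539 was found in number 6 alone, with 38 counts in liver, 25 in brain, 25 in gut and 23 in heart, against at most 1 in the other aged numbers, and 7 counts in muscle against 0. No cave library had more than 1 count and no young surface library more than 2. ENSAMXG00000000010 was on in numbers 5 and 7, with 107 and 56 counts in brain, 42 and 27 in heart and 31 and 17 in liver, against 0 in numbers 6 and 8 of those tissues. ENSAMXG00000014756 followed it in numbers 5 and 7, for example with 77 and 71 counts in liver against 1 and 0, although in brain its off libraries held 4 and 3 counts beside 388 and 361. ENSAMXG00000020021 was on in numbers 5, 6 and 8 in 4 tissues, with 116, 69 and 105 counts in brain against 0 in number 7. Gut of number 7 nevertheless held 17 counts.

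ENSAMXG00000014616 was missing from a single aged fish. Number 5 had 0 counts in heart, liver and muscle, and also in gut, against 51, 61 and 58 counts in heart of numbers 6, 7 and 8, 147, 133 and 29 in liver, 18, 12 and 16 in muscle and 121 and 59 in gut of numbers 6 and 7. Brain did not follow. There number 5 held 5 counts beside 1, 4 and 4 in the other aged surface fish, while cave brain held 202 to 347 counts and young surface brain 14 to 21.

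**Figure D3:**
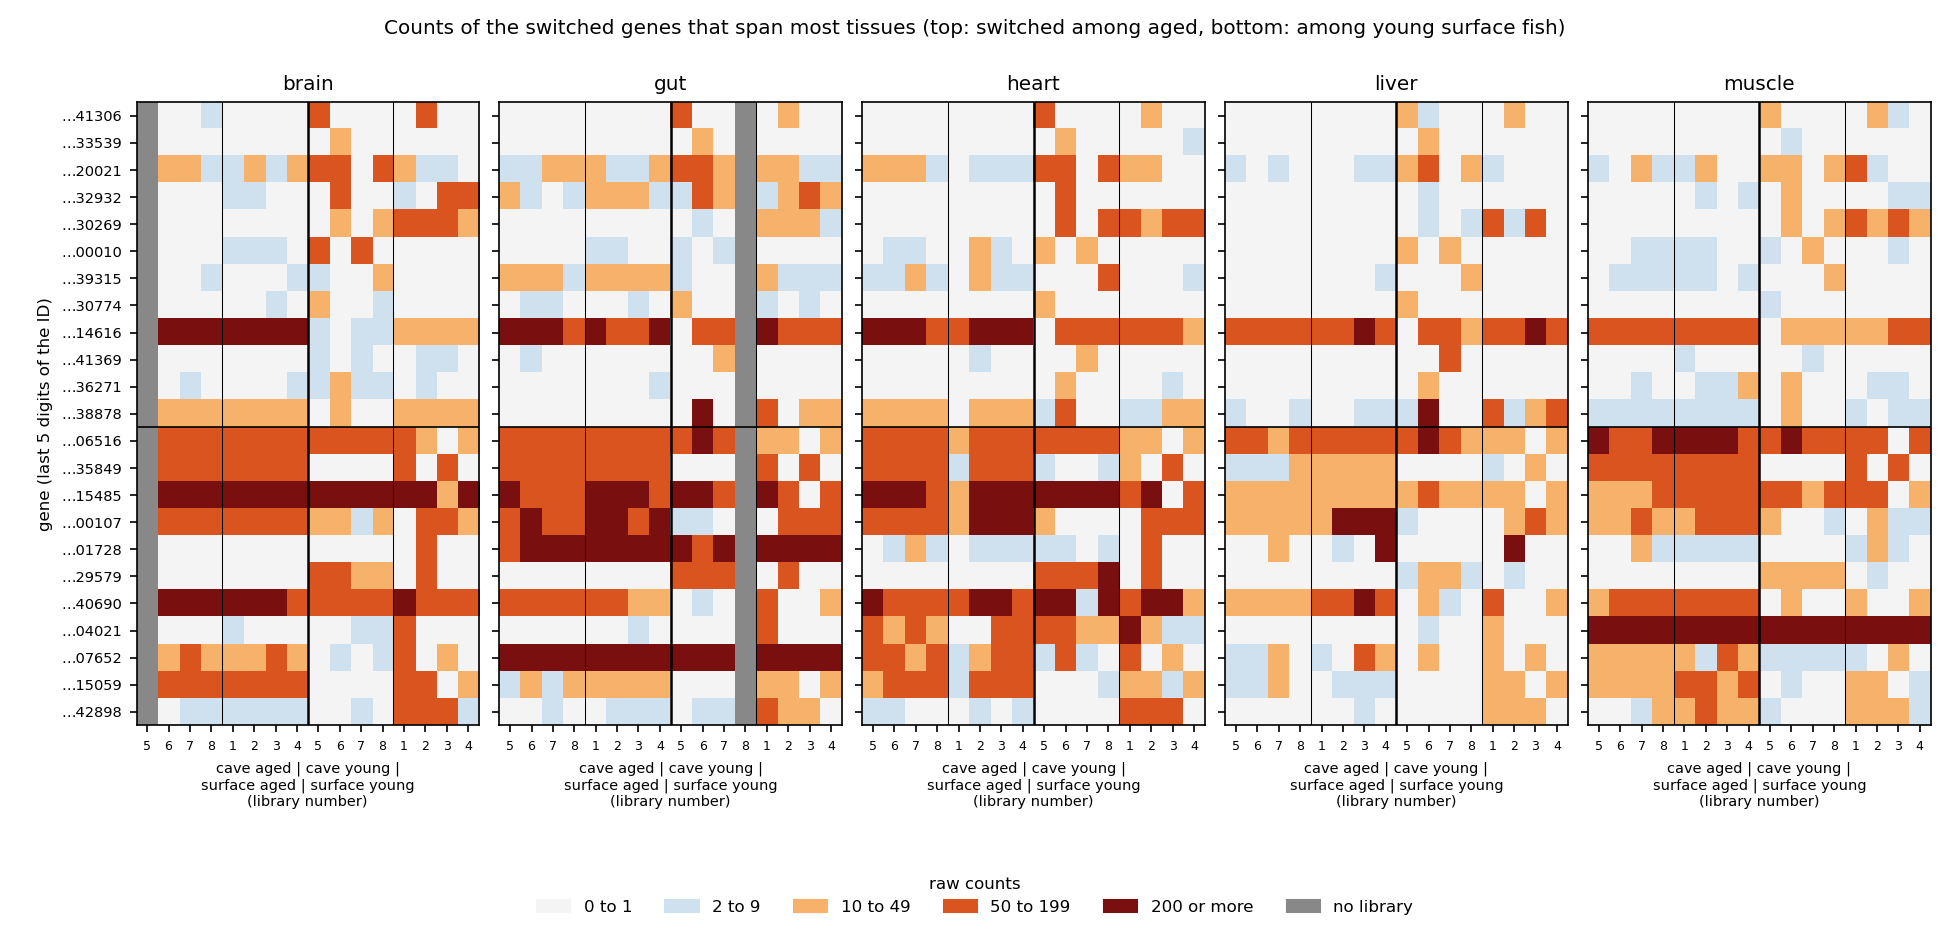
Raw counts in 5 classes for the 23 genes that span the most tissues (rows, upper block aged list, lower block young list) in all 78 libraries (columns, by tissue, group and number; grey, no library). Rows such as ENSAMXG00000035849 are filled in cavefish, empty in aged surface fish and split between young surface numbers in each tissue.

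Of the 4 genes that met the rule in both age classes, ENSAMXG00000041306 was found in 1 fish of each class. Aged number 5 had 119 counts in heart, 94 in brain, 56 in gut, 29 in muscle and 21 in liver, and young number 2 had 47, 54, 49, 22 and 26 counts in the same tissues, against 0 to 2 counts in every other surface library and in every cave library. ENSAMXG00000020678 was off in aged number 6 and in young number 4 in brain and gut. It was also off in brain of aged number 8, which has no gut library. The on brains held 42 and 61 counts in aged fish and 34 to 81 in young fish, with at most 1 count of the gene in any cave library. ENSAMXG00000025181 was on in aged number 7 alone and in young numbers 1, 3 and 4, in gut and liver, yet brain held 742 to 1761 counts in all surface fish and 731 to 1188 in cavefish. ENSAMXG00000029525 was on in aged numbers 5, 7 and 8 in heart and muscle and in young number 3 in gut and muscle.

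How far the off state reached beyond the tissues that chose the genes was then counted in the remaining tissues. In the off fish the highest count elsewhere was at most 1 for 8 of the 58 aged genes, 2 to 9 for 24 and at least 10 for 26. Among the 62 young genes these numbers were 9, 17 and 35, and 1 gene had no further tissue. Brain held the highest count of the off fish for 18 of the 26 aged genes and 21 of the 35 young genes. Where an unused tissue held at least 10 counts in the age class, the on numbers lay above all off numbers in CPM in 72 of 88 aged cases (81.8%, against 27.4% of all other genes for the same tissues and numbers). For young genes this was so in 69 of 107 cases (64.5%, against 23.8%). The share was lowest in young gut, with 11 of 23 cases, and highest in aged heart, with 18 of 19. Several cases can come from 1 gene, and the unused tissues include those where a set just missed the limits.

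Some of the switched genes belonged mainly to a tissue other than those in which they were switched. For 13 aged and 19 young genes the median of another tissue was at least 16-fold above the tissues of the switch, and that tissue was brain for 10 aged and 12 young genes. ENSAMXG00000001728 had 254 to 930 counts in gut of every young surface fish. Outside gut, young number 2 held 75 counts in brain, 119 in heart and 223 in liver, against at most 1 in the other young fish. ENSAMXG00000004021, with 484 to 1852 counts in young surface muscle, held 68 counts in brain, 65 in gut and 14 in liver of young number 1, against at most 1 in numbers 2 to 4. ENSAMXG00000007470, a gene of 318 to 675 counts in aged surface brain, held 281 counts in heart, 73 in muscle, 70 in liver and 38 in gut of aged number 7, against 0 to 3 in the other aged surface fish. Genes specific to the other tissue were summed over a library. Their share was larger in every on than in every off library in 15 of 26 aged and 21 of 41 young combinations of gene and tissue. This held in every tissue of the switch for 4 aged and 6 young genes, and in no tissue for 2 and 4. How often this holds for other sets of numbers was not counted, so whether these counts are high or low is not known. Among the genes named here it held in 1 of 3 tissues for ENSAMXG00000001728 and ENSAMXG00000004021 and in 0 of 2 for ENSAMXG00000007470. ENSAMXG00000034088, highest in muscle, was on in brain and heart of young number 3. Muscle-specific genes took 0.275% and 0.255% of these libraries, against 0.0435% to 0.164% of the off ones. The part of carried-over tissue in the result was not tested.

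A set of 16 genes moved together over libraries, and it accounted for 15 of the 62 young genes and 1 of the 58 aged genes. It was grouped after the values were seen, by correlation of log2(CPM + 1) centred within tissue over 78 libraries, with a mean pairwise r of 0.853 (0.644 to 0.989), beside a median of 0.017 over all 6670 pairs of switched genes. The libraries share depth and tissue composition, so r is given as a description. It held 9 of the 12 genes that were on in young numbers 2, 3 and 4, all in liver and muscle. Summed over the set, young surface muscle held 1380 CPM in number 2, 79.3 in number 4, 16.5 in number 3 and 0.31 in number 1. Number 2 was also highest in young surface gut (589 CPM) and liver (119 CPM). In young surface brain it was again highest, within a narrow range of 95.5 to 104 CPM. In young surface heart, which chose no gene of the set, the sum was 1.65 to 10.4 CPM and number 4 was highest. Within cavefish the highest libraries were young muscle numbers 2 (4680 CPM) and 1 (1020 CPM) and aged heart number 5 (1240 CPM), beside 4.66 to 8.76 CPM in the other aged cave hearts. Young cave gut held 65 CPM in number 2, beside 1.15 to 5.15 CPM, and young cave liver 9.97 CPM in number 2, beside 0.661 to 2.66 CPM. Number 2 was thus highest in gut, liver and muscle of young cavefish, as in young surface fish. In young cave heart it held 5.67 CPM, and number 3 was highest with 6.54 CPM. Aged cave muscle was also divided, with 670 CPM in number 7 and 444 CPM in number 8, beside 6.98 CPM in number 5 and 2.76 CPM in number 6. Brain held 89.9 to 124 CPM in all groups, but only 4 to 7 of the 16 genes reached 10 counts in a brain library. ENSAMXG00000038705 and ENSAMXG00000003153 had brain medians of 50.95 and 32.67 CPM, so the brain sum rested on few genes and not on the set as a whole. The high level of the set therefore did not follow a number through all tissues. Brain-specific genes, defined like the liver-specific ones, took 0.56% of cave young muscle number 2 and 0.285% of number 1. Numbers 3 and 4 held 0.183% and 0.199%. The share was also highest of its group in surface young muscle number 2 (0.251%) and cave aged heart number 5 (0.356%). It was not in surface aged muscle number 5 (0.149%) or cave young gut number 2 (0.108%). Whether tissue composition bears on the set was not tested. Without the set, 57 aged and 47 young genes met the rule, and identical on sets made up 51.4% of aged and 52.6% of young tissue pairs.

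**Figure D4:**
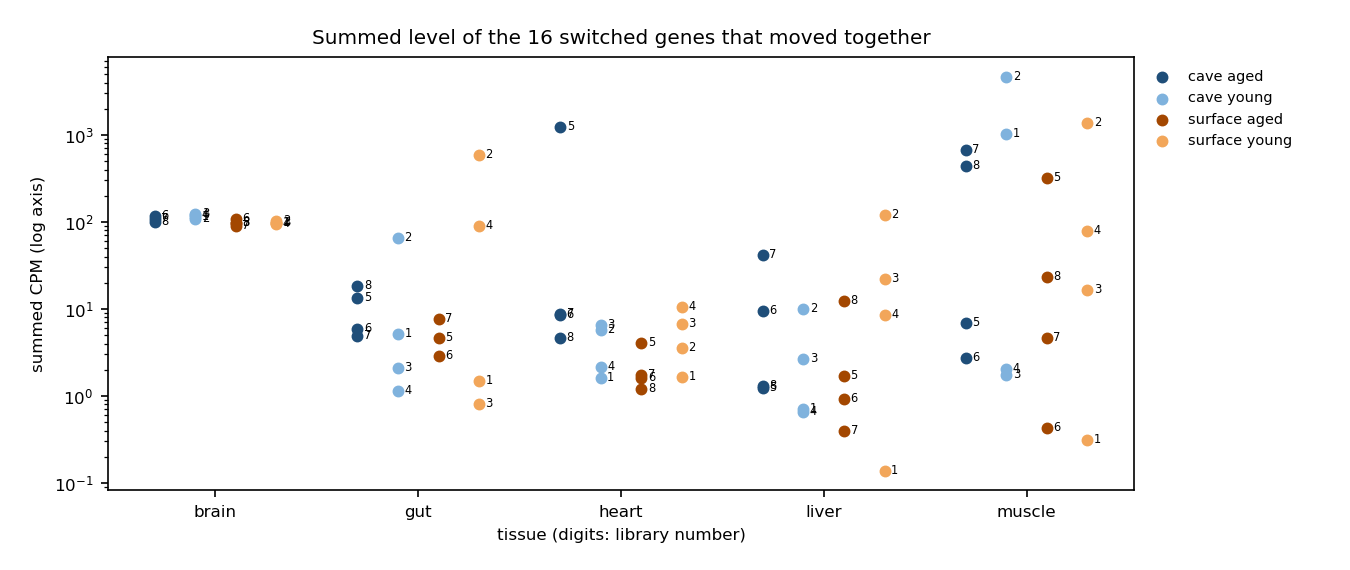
Summed CPM (vertical axis, logarithmic) of the 16 genes that moved together, 1 point per library with its number, by tissue and group. Single libraries such as cave aged heart number 5 (1240 CPM) and surface young muscle number 2 (1380 CPM) lie far above the rest of their group. Brain stays between 89.9 and 124 CPM, a sum that rests on few of the genes.

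Smaller sets also moved together. In all, 47 of the 116 genes fell into 14 groups with a mean r of at least 0.7, and 69 fell into none. A set of 5 genes was on in aged number 5 alone. One of them, ENSAMXG00000007680, had 98 counts in liver, 66 in heart, 41 in gut and 18 in muscle of number 5, against 0 to 8 in the other aged surface fish, whereas the brains of those other fish held 37 to 70 counts. The pair of ENSAMXG00000000010 and ENSAMXG00000014756, both on in aged numbers 5 and 7, had an r of 0.951.

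Cavefish were examined in the tissues where each gene was switched. Of the 58 aged genes, 2 were on in every cave library, 11 were off in every one, 18 stayed below 10 counts with some above 1, 1 was again split into on and off libraries and 26 had another mixture. Of the 62 young genes, 8 were on in every cave library, 8 off in every one, 11 below 10 counts, 1 split and 34 mixed. At least 1 cave library was on for 29 aged and 43 young genes. The counts of the 8 young genes on throughout include ENSAMXG00000035849, which fell to 2 counts in cave young heart number 1 and was on throughout only without that library. Against the other age class of surface fish the aged genes were on throughout for 4 and off throughout for 11, and the young genes for 6 and 4. For 19 aged and 7 young genes no cave library and no surface library of the other age class was on in the tissues of the switch. Over all 5 tissues this held for 10 aged and 3 young genes, and for 8 aged genes and 1 young gene no library outside the on fish reached 10 counts in any tissue. The same states were not counted over all genes or over equally scarce genes. Whether they are particular to the switched genes is therefore not known.

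**Figure D5:**
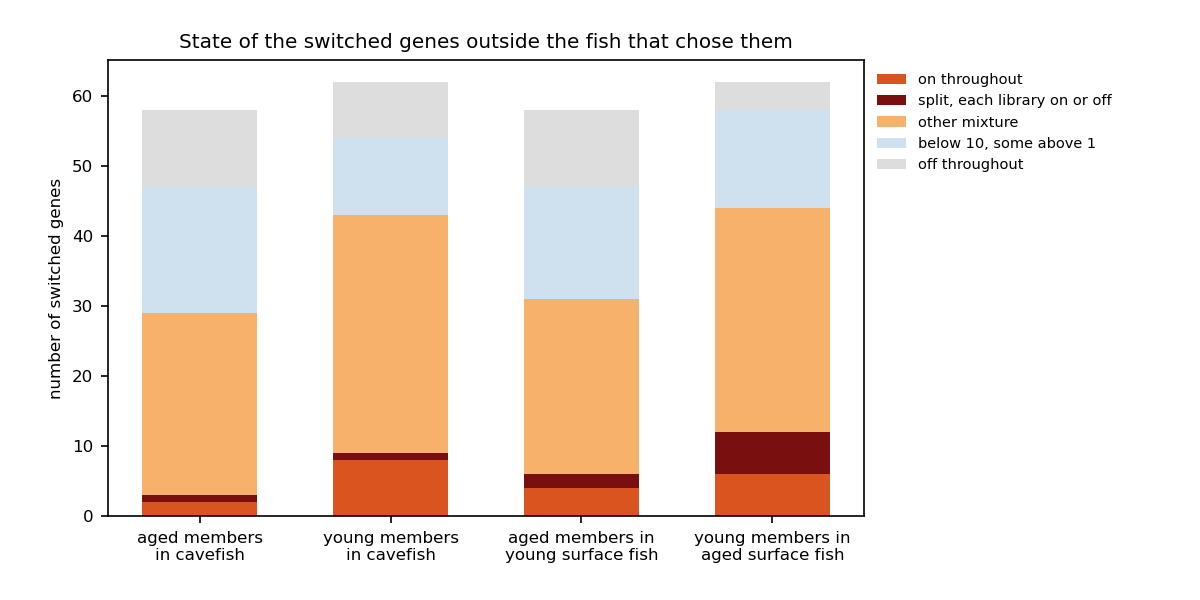
Number of switched genes (vertical axis) by their state in cavefish and in the other age class of surface fish, over the tissues where each was switched. On throughout covers 2 of 58 aged and 8 of 62 young genes in cavefish, and the mixed class is the largest in all 4 bars.

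The same rule applied to cavefish took 78 genes, 53 in aged and 28 in young fish. In young cavefish the count rested partly on heart, where number 1 stood apart, and was 16 with heart left out. In both populations 5 genes met the rule, which is 4.31% of the surface list (0.409% of all genes were in the cave list) and 6.41% of the cave list (0.608% of all genes were in the surface list), and 3 of the 5 belonged to the set of 16 described above. On sets were identical in 77 of 189 tissue pairs in aged cavefish (40.7%) and in 35 of 191 in young cavefish (18.3%, or 27.4% with heart left out), against 51.1% in aged and 52.0% in young surface fish. Full sets were compared. A set with the number missing from aged cave brain or aged surface gut could not match there, while a set without it was judged on fewer libraries. The difference between the populations was not tested.

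Cave and surface libraries were compared with edgeR's quasi-likelihood test with age as covariate, adjusted over all genes tested in a tissue (Benjamini-Hochberg, adjusted p under 0.05). The surface values that chose the genes enter this comparison, and between 35 (liver) and 73 (brain) of the 116 genes passed the filter on low counts, so the counts below describe those genes and not all 116. In brain 15 of 73 were higher in cavefish (12.6% of all genes tested were) and 16 lower (13.6% of all). Of 66 genes in gut 5 were higher (4.46% of all) and 16 lower (4.58%). Heart had 4 of 49 higher (2.31%) and 7 lower (1.87%) with cave young heart number 1 included, and 6 of 54 higher (3.63%) and 7 lower (2.68%) without it. Among 35 genes in liver 3 were higher (2.97%) and 6 lower (1.79%), and muscle had 5 of 54 higher (1.95%) and 4 lower (1.78%). Over the tissues 41 of the 96 genes tested in any tissue were called (30.5% of all genes tested in any tissue were), 15 always higher (14.7% of all), 24 always lower (15.3%) and 2 in both directions (0.548%), and 14 were called in 3 or more tissues (2.1%). DESeq2, which also tested more of the genes, called 34 of 90 in brain (26.3% of all genes), 33 of 93 in gut (13.2%), 24 of 73 in heart (9.75%), 20 of 90 in muscle (6.8%) and 18 of 72 in liver (8.1%). With no filter on low counts edgeR called 39 of 115 genes in brain (21.1% of all), 23 of 116 in gut (6.55%), 12 of 115 in heart (3.16%), 14 of 115 in muscle (2.85%) and 18 of 115 in liver (3.99%). Leaving out surface aged heart number 6 left 7 of 53 genes in heart (456 of all 13616 genes tested). Leaving out number 8 left 7 of 54 (476 of 13631). Cave young liver number 4, which a supplementary table of the study names as aged, moved the count in liver. Leaving it out left 4 of 42 (425 of all 11031 genes tested), and counting it as aged gave 12 of 45 (4.54% of all).

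ENSAMXG00000014616 had the lowest adjusted p among the genes higher in cavefish. In brain it averaged 36.5 ± 3.06 CPM in cavefish (SD, n = 7) and 1.11 ± 0.816 CPM in surface fish (SD, n = 8), a log2 fold change of 5.04 (edgeR across all genes, adjusted p = 1.615e-09), and the groups did not overlap. ENSAMXG00000030747 averaged 63.5 ± 13.1 CPM in cave brain and 15 ± 9.67 CPM in surface brain, a log2 fold change of 2.09 (edgeR, adjusted p = 0.00051), again without overlap. This gene was switched in gut and liver of aged surface fish, with 34 and 98 counts in gut of numbers 5 and 6 against 0 in number 7. In aged surface brain numbers 5 and 6 also lay above the other numbers in CPM. The brain test therefore includes low values from the fish whose off state had chosen the gene. Among genes lower in cavefish, ENSAMXG00000031557 had 0 to 2 counts in cave brain against 1 to 134 in surface brain, where only young number 3 was as low. Young surface brain had chosen this gene, so no test is given. ENSAMXG00000037256 had 0 or 1 counts in cave gut, against 0 to 9 in aged and 44 to 98 in young surface gut (log2 fold change -6.02, edgeR adjusted p = 0.00012). Brain and heart of the aged surface fish had chosen this gene, so their gut levels are not independent of the choice.

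Aged and young surface fish were compared within each tissue by the Wald test of DESeq2, as in the study. The levels in 1 of the age classes had chosen each gene, and the spread within that class is part of the choice. In brain DESeq2 called 12 of 89 switched genes, while it called 6.14% of all genes tested. The calls were 11 of 82 genes for gut (9.84% of all), 7 of 82 for heart (2.84%), 8 of 63 for liver (5.19%) and 6 of 63 for muscle (4.48%). With edgeR, which tested 51 of the genes in brain and 27 to 48 in the other tissues, 1 gene was called in brain (2.18% of all genes tested) and 0 in gut (2.03% of all), heart (0.161%), liver (0.726%) and muscle (0.0432%). An unadjusted edgeR p under 0.05 was reached by 11 genes in gut and by 9 of the 51 in brain. Liver had 5 such genes, muscle 4 and heart 3. The share of all genes tested with such a p was not counted. Whether these counts are particular to the switched genes is therefore not known. Leaving out 1 library lowered the DESeq2 count by more than 1.5 times for surface young brain number 2 (7 genes), for surface young liver numbers 2 (4), 3 (3) and 4 (5), and for surface young muscle number 4 and aged muscle numbers 6 and 7 (2 each). Calls over all genes fell too, in brain from 984 to 523 and in liver from 613 to 439, 362 and 470. In muscle they fell from 600 to 368, 229 and 391.

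ENSAMXG00000015059 was the gene that edgeR also called. In brain all 4 aged surface libraries were at 0, against 60, 81 and 38 counts in young numbers 1, 2 and 4 and 1 in number 3. With a floor of 3 counts over the aged group, aged fish were at least 47.3-fold lower, which is given without a test because young brain had chosen the gene. Cave brain held 73 to 116 counts at either age. ENSAMXG00000037256 in gut averaged 0.267 ± 0.392 CPM in aged (SD, n = 3) and 4.52 ± 0.424 CPM in young surface fish (SD, n = 4), with a DESeq2 adjusted p of 1.07e-05, and without overlap. Brain and heart of the aged fish, off in number 7, had chosen this gene, so the gut test is not independent of the choice. Of 11 alternative settings, 1 no longer called it. ENSAMXG00000006516 in gut averaged 15.2 ± 4.42 CPM in aged and 1.65 ± 1.17 CPM in young surface fish, where number 3 was at 0, again without a test because young gut had chosen the gene. ENSAMXG00000039672 was on in aged numbers 5, 6 and 8 in brain and heart, with 16, 15 and 20 counts in brain, and was at 0 in aged number 7, in all young surface libraries and in all cave libraries. In brain, which had chosen it, it was at least 21.6-fold higher in aged than in young fish (floor of 3 counts over the young group).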

How the data were processed

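The authors deposited unnormalized read counts for 19076 Ensembl genes, as 1 table per tissue. Per the study's methods the authors aligned reads with STAR to a reference assembly of the species and took counts from the matching Ensembl annotation. Strand setting, treatment of reads mapping to several places and filters are not given in the sources used here, so counts of near-identical copies or overlapping genes are uncertain. Total counts per library had a median of 11116241.5, and a count of 10 corresponds to about 1 CPM at this depth.

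Groups and numbers came from the labels. Cave heart numbers 5 to 8 carry conflicting age labels and were grouped as aged, and cave liver number 4 was kept as young as labelled, although a supplementary table of the study names it as aged. The labels do not say whether libraries came from separate fish, so p-values measure the spread between libraries. Over 114 pairs of libraries of 1 group, chi-square divided by its degrees of freedom was never below 4.81, so each was counted once. The reference table given for the species paired 0 of the Ensembl IDs with names, so genes are given by ID, and gene families, named marker lists and sequences were not analysed here.

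The switch rule was applied to raw counts. R 4.3.3 was used with edgeR 4.0.16 (TMM, filterByExpr, population plus age) and DESeq2 1.42.0 (default Cook and independent filtering, surface fish of 1 tissue). DESeq2 left an adjusted p empty for 27 to 53 of the 116 genes per tissue, including genes it did not list. Both fits and the rule were tested on simulated data. The members and lists were chosen with earlier results of these data known. Named genes are those spanning the most tissues in each age class, ranked by their lowest on count, those in both classes, examples at the limits, and for each test the 2 with the lowest adjusted p in each direction. Other genes were named as examples after their values were seen. Alternatives covered the limits of the rule, the tissues, single libraries, the other tool, scaling, filters and the replicate number as a block.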

Additional observations from a re-analysis of the deposited data

Results flagged for a closer look

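Library totals, the number of switched genes with at least 10 counts and the summed level of the 16 genes that moved together were examined in the 18 groups of 4 libraries, which gave 54 sets. In 6 sets 1 library stood apart, by a gap to the nearest library above Dixon's 95% limit, and all 6 concerned the 16 genes. Such a gap arises by chance in about 1 set in 20 of values not chosen for it, a rate that does not apply here. The 16 genes were grouped because they are high in the same libraries, and surface young gut and muscle and surface aged liver and muscle are among the values that chose them, so these gaps are a description. Cave aged heart number 5 held 1240 CPM, with 8.76 CPM in the next library. Cave young gut number 2 held 65 CPM beside 5.15 CPM, surface aged liver number 8 held 12.4 CPM beside 1.69 CPM, and surface aged muscle number 5 held 317 CPM beside 23.3 CPM. Surface young gut number 2 held 589 CPM beside 88.9 CPM, and surface young muscle number 2 held 1380 CPM beside 79.3 CPM.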

How the results depend on the processing

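The number of switched genes followed the limits of the rule. From 58 aged and 62 young genes it went to 23 and 32 with an off limit of 0 counts, 24 and 28 with an on limit of 20, 5 and 8 with an on limit of 50, 38 and 29 with limits of 1 and 0.1 CPM, 12 and 12 with 3 or more tissues, and 30 and 38 without liver. Without heart 37 aged genes were left. Leaving out 1 number gave 54 to 94 aged and 73 to 107 young genes. For cave against surface, the DESeq2 Wald test called 33 switched genes in gut, 24 of heart, 18 of liver and 20 of muscle, and no filter on low counts gave 18 in liver and 14 in muscle. Of 38 pairs of same-numbered cave and surface libraries, 13 had a correlation above 0.1 (from -0.398 to 0.867), with 0 of 7 in brain and 4 of 8 in muscle. These values hold no comparison with different numbers, so whether the numbers pair cave with surface libraries is not known. With the replicate block 5 of 49 genes were called in heart (299 of all 13343 genes tested) and 5 of 35 in liver (324 of 10751). The calls were 26 of 70 in brain (3164 of 14623), 16 of 64 in gut (636 of 13306) and 8 of 54 in muscle (430 of 12898). Leaving out 1 library gave 25 to 32 genes for brain (3243 to 3869 of all genes were called) and 15 to 23 for gut (905 to 1368). Heart had 7 to 14 (420 to 863), liver 4 to 11 (420 to 541) and muscle 6 to 10 (355 to 536). The number of all genes called also moved with the library left out, here and in the comparison of ages. For aged against young surface fish the edgeR test called 1 gene in brain and 0 in gut, heart, liver and muscle. In the DESeq2 test, leaving out 1 library gave 7 to 14 for brain (518 to 1119 of all genes were called). Gut had 8 to 14 (692 to 1830), heart 5 to 10 (212 to 909), liver 3 to 11 (362 to 837) and muscle 2 to 6 (229 to 1124). The cause of these changes was not tested. Of the alternative counts 144 stayed within 1.5 times and 40 did not, and no named log2 fold change turned its direction. Depth limits the off state, since a count of 0 or 1 in a library of 6266669 to 20118504 counts leaves low expression undetected.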
